A study of Xenopus laevis with 8 samples.

Results

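Globin genes were measured in anterior endoderm of Xenopus laevis embryos, on Affymetrix arrays. A globin probe set was any whose platform gene symbol, without its .L or .S ending, began with hba, hbb, hbd, hbe, hbg or hbz, other than hbegf and hbp1. The rule took 14 of the 32539 probe sets tested, for 10 of the 11303 named genes. They were 6 alpha-type genes (hba1.S, hba2.L, hba3.L, hba4.S, hba-l5.L and hbz.L, with 7 probe sets) and 4 beta-type genes (hbd.S, hbe1.L, hbg1.L and hbg2.L, also with 7 probe sets). No probe set was matched through an hbb symbol. The ending .L or .S marks the 2 copies of a gene in the subgenomes of this allotetraploid frog.

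All embryos carried injected Ngn3-GR mRNA, delivered to 2 dorsal vegetal blastomeres at the 8-cell stage. Ngn3-GR is the proneural factor Neurogenin 3 joined to a glucocorticoid receptor domain, so that dexamethasone switches it on. The DEX group (4 arrays) was given 10 µM dexamethasone for 4 hours from Nieuwkoop and Faber (NF) stage 12. The no_DEX group (4 arrays) carried the same mRNA and was not given dexamethasone, and endoderm was dissected from both groups at NF stage 15. The series asked which genes were higher with dexamethasone. No group given dexamethasone without Ngn3-GR was analysed here, so the hormone and the fusion cannot be told apart. The gene neurog3 itself was not analysed here. The labels number the arrays 1 to 4 as biological replicates in each group but do not say what a number stands for (clutch, day or dissection), nor how many embryos went into an array.

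Globins are the protein chains of haemoglobin, which red blood cells use to carry oxygen. A haemoglobin molecule holds alpha-type and beta-type chains in equal number, each with a haem group, and vertebrates switch between embryonic or larval and adult chains during life. In Xenopus embryos the first red cells form in the ventral blood island, a mesoderm that lies against the endoderm, under factors such as Tal1, Gata1 and Lmo2. Globin transcripts are the standard mark of these cells.

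Values are log2 RMA signals, and a difference of 1 is 2-fold. Array medians lay between 6.02 and 6.12, and 17 control probe sets for tags absent from the sample ranged from 2.38 to 4.40. A mean at or under 4.40 is called dim below, since it lies in the range of those controls. Of all 32539 probe sets, 31.7% were dim. The dissected tissue labelled endoderm held endoderm markers, with 18 of 19 probe sets measured above 4.40. Array medians over those 18 were 9.37 to 9.99 in DEX and 8.71 to 9.52 in no_DEX. Markers of neural plate were present too (12 of 13 above 4.40), with array medians of 9.36 to 9.65 in DEX and 9.46 to 9.86 in no_DEX. Of skeletal muscle markers 10 of 13 were above 4.40 and 3 were dim, a count from which no presence is read, given the share over all probe sets. In such bulk samples, fewer cells of a type and less RNA per cell cannot be told apart. Brightness of different probe sets does not rank the amounts of their transcripts, and no such ranking is made here.

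Only 3 of the 14 globin probe sets were above 4.40 in mean, those of hba3.L and hba4.S and the first of the probe sets of hba-l5.L. All 3 lay above it on 8 of 8 arrays. The other 11 were dim, with means of 2.66 to 4.23, where 31.7% of all probe sets were dim. All 7 beta-type probe sets taken by the rule were dim, at 2.66 to 4.23, so none of them gave a signal above the control range in mean. Their changes between the groups ran from −0.09 to 0.11, with 4 higher and 3 lower in DEX. Among the alpha-type genes, hba1.S, hba2.L and hbz.L were dim.

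The alpha globin gene hba3.L (probe set Xl2.1125.1.S1_x_at) was higher with dexamethasone. Its signals were 7.64, 7.79, 8.12 and 8.32 in DEX replicates 1 to 4, against 6.82, 5.85, 6.40 and 6.44 in no_DEX replicates 1 to 4. Every DEX array stood above every no_DEX array, with 0.82 between the lowest DEX array and the highest no_DEX array. Means were 7.97 ± 0.31 in DEX and 6.38 ± 0.40 in no_DEX (SD, n = 4 each), a log2 change of 1.59 or 3.02-fold. In pairs of arrays with the same replicate number, DEX minus no_DEX was 0.82, 1.94, 1.73 and 1.88 for numbers 1 to 4. The change in pair 1 was thus less than in any other pair, and its no_DEX array was the highest of that group.

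**Figure D1:**
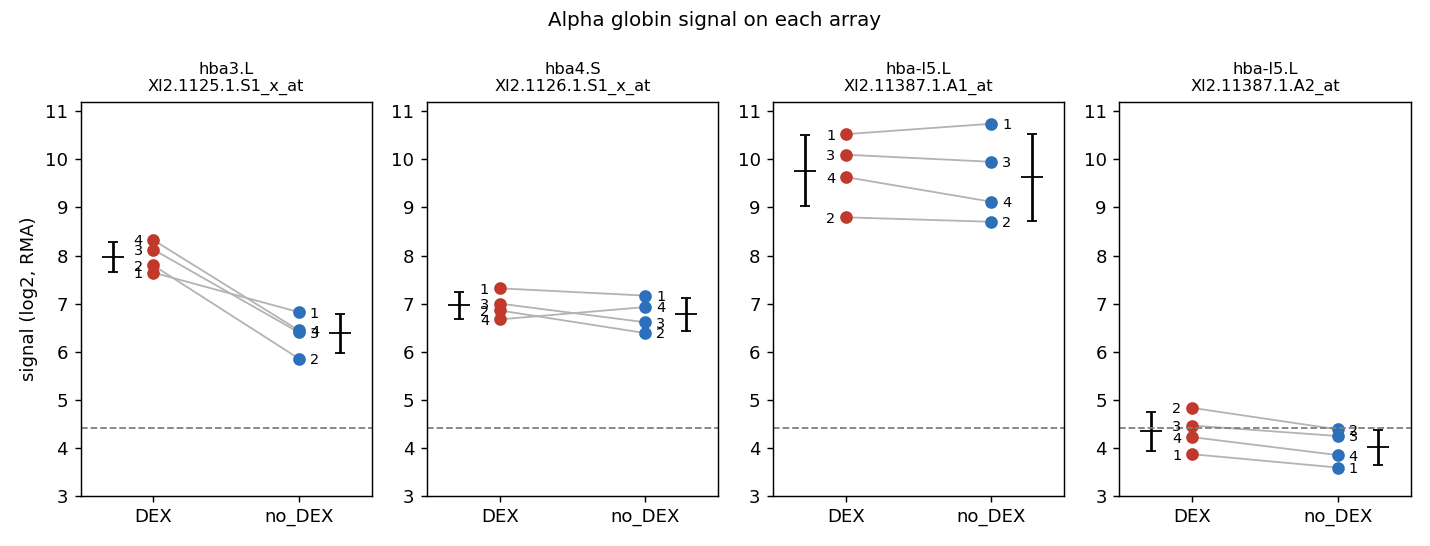
Signal (log2, RMA) of hba3.L, hba4.S and both probe sets of hba-l5.L on each array, DEX in red on the left and no_DEX in blue on the right. Numbers are replicate numbers, grey lines join the arrays with the same number, black marks give the mean ± SD over 4 arrays, and the dashed line is the highest background control (4.40). Only in the hba3.L panel do the groups not overlap.

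The globins were chosen by this same contrast, in which hba3.L was among the probe sets called with the replicate block, so its values are a description here and no test is drawn from them. For reference, limma gave hba3.L an adjusted p of 0.136 without a block and 0.0171 with the replicate number as a block. With the block, leaving out pair 2 gave an adjusted p of 0.103, leaving out pair 3 gave 0.0817, leaving out pair 4 gave 0.0495 and leaving out pair 1 gave 0.00780. The change was 5th in size among the increases of all 32539 probe sets, and 3rd among the named genes. Of the 14 globin probe sets 1, that of hba3.L, was called with the block as higher, where 0.329% of all probe sets were. Without the block limma called 0 of 14, against 0.00615% of all probe sets. Unadjusted p was under 0.05 for 1 of 14 without and 3 of 14 with the block, where it was for 4.24% and 12.5% of all probe sets, and nothing is read from these counts.

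The alpha globin gene hba4.S (probe set Xl2.1126.1.S1_x_at) is listed under the older name hba3b in the RefSeq gene table, where hba3.L is listed as hba3a. Signals of hba4.S were 7.32, 6.86, 7.00 and 6.67 in DEX replicates 1 to 4, against 7.17, 6.39, 6.61 and 6.93 in no_DEX. The groups overlapped, with DEX higher in pairs 1 to 3 and lower in pair 4 (0.15, 0.47, 0.39 and −0.26). Means were 6.96 ± 0.27 in DEX and 6.77 ± 0.34 in no_DEX, a log2 change of 0.19.

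Both of these probe sets end in _x_at, a suffix that Affymetrix gives to sets holding probes that can also bind other transcripts. The 2 sets therefore may read some of each other's RNA or that of other alpha globins, and how far they do was not tested. Within each array, hba3.L minus hba4.S was 0.33, 0.94, 1.13 and 1.65 in DEX replicates 1 to 4, against −0.34, −0.53, −0.21 and −0.49 in no_DEX. Every DEX array had a higher difference than every no_DEX array, and its sign does not rank the 2 transcripts. This within-array difference changed by 0.67, 1.47, 1.34 and 2.14 in pairs 1 to 4, a mean of 1.40 ± 0.60 (SD, n = 4 pairs), so these alpha globin signals changed unequally. As hba3.L was chosen for its change, no test was made of this difference.

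Of the alpha-like globin gene hba-l5.L there were 2 probe sets, and both were higher in DEX by less than hba3.L. The first, Xl2.11387.1.A1_at, measured 10.53, 8.80, 10.10 and 9.63 in DEX replicates 1 to 4, against 10.74, 8.70, 9.95 and 9.12 in no_DEX. The groups overlapped almost wholly, with means of 9.76 ± 0.74 in DEX and 9.63 ± 0.91 in no_DEX and a log2 change of 0.13. Pair changes were −0.22, 0.09, 0.15 and 0.51. Leaving out 1 array at a time moved this change between −0.17 (without no_DEX replicate 2) and 0.51 (without no_DEX replicate 1). Its direction in this unpaired difference rests on single arrays, and the range also holds the differences between replicate numbers. With a whole pair left out, the change ran from 0.008 to 0.25. By comparison, hba3.L minus this probe set changed by 1.04, 1.85, 1.58 and 1.37 in pairs 1 to 4 (mean 1.46 ± 0.34, SD, n = 4 pairs), without a test.

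The second hba-l5.L probe set, Xl2.11387.1.A2_at, was dim, at 3.86, 4.83, 4.46 and 4.22 in DEX and 3.59, 4.38, 4.24 and 3.85 in no_DEX replicates 1 to 4. It was above 4.40 on 2 of 8 arrays. DEX was higher in 4 of 4 pairs (by 0.28, 0.45, 0.22 and 0.37), while the groups overlapped, and the mean change was 0.33. The gene hbz.L is a zeta-type globin, a class that mammalian embryos use in place of adult alpha chains. Its probe set was dim as well, at 3.37, 2.99, 3.17 and 3.05 in DEX against 2.94, 2.80, 3.02 and 2.85 in no_DEX, also higher in 4 of 4 pairs with overlapping groups (log2 0.24). Both have means in the range of the background controls. Whether such signals read globin RNA, or how large a difference in RNA would be, cannot be told there.

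Over the family, 3 of 14 probe sets were higher in DEX in 4 of 4 pairs (hba3.L, the second of hba-l5.L and hbz.L), where 10.9% of all probe sets were. Groups did not overlap for 1 of 14, hba3.L, where every DEX array exceeded every no_DEX array for 1.58% of all probe sets. Of the other 13 probe sets 8 were higher and 5 lower, with changes from −0.09 to 0.33 and a median of 0.04, and the median over all 32539 probe sets was 0.002. With the block the lowest adjusted p among those 13 was 0.131, for the second hba-l5.L set. The larger change of the family thus came from 1 alpha globin probe set, and the other alpha globins above background differed by less than the spread between their arrays.

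**Figure D2:**
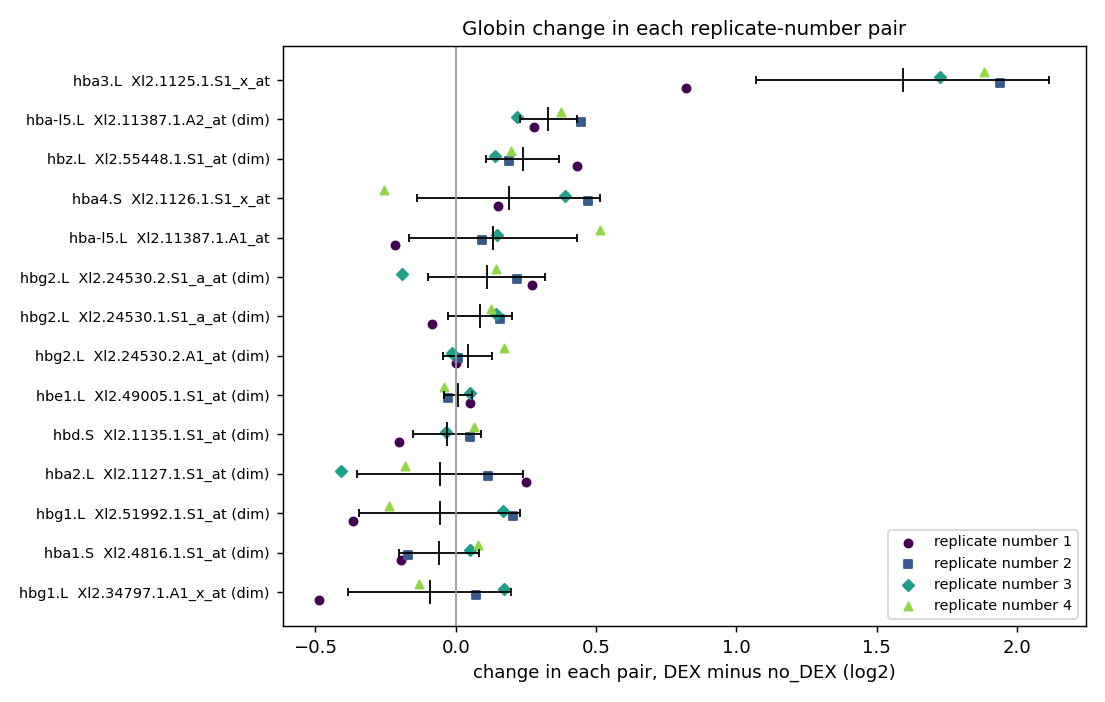
Change in each replicate-number pair (DEX minus no_DEX, log2) for the 14 globin probe sets, ordered by mean change. Symbols are the 4 pairs, the black tick is their mean and the bar ± 1 SD, and "dim" marks means at or under 4.40. The hba3.L pairs lie between 0.82 and 1.94, and those of all other sets between −0.49 and 0.51.

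In all, 5 of the 14 probe sets carried a suffix for shared probes. They were 3 ending in _x_at (hba3.L, hba4.S and 1 of the probe sets of hbg1.L) and 2 ending in _a_at, both of hbg2.L, a suffix for transcripts of 1 gene. The 9 others had none. Which strand each probe set reads is not given in the sources used here. Genes with several probe sets were hba-l5.L, hbg1.L and hbg2.L.

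Whether globin signal differed between replicate numbers does not depend on the dexamethasone contrast, and was tested with limma's moderated F with group in the model. Of 14 globin probe sets 2 passed, both of hba-l5.L, where 20.7% of all probe sets did, so differences between numbers were common on these arrays. Above background 1 of 3 globin probe sets passed, where 26% of all such probe sets did. The first hba-l5.L set averaged 10.64, 8.75, 10.02 and 9.38 over both arrays of numbers 1 to 4, a range of 1.89 or 3.70-fold (adjusted p = 0.00109). The second, dim set averaged 3.72, 4.60, 4.35 and 4.03 (adjusted p = 0.00532). Number 1 was highest and number 2 lowest on the first set, and number 2 was highest and number 1 lowest on the second, so the extremes were reversed between the 2 probe sets of this gene. Number 3 lay above number 4 on both. Deviations from the group means correlated at −0.75 between them over the 8 arrays.

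For hba3.L the same averages were 7.23, 6.82, 7.26 and 7.38 and did not pass (adjusted p = 0.331), although they did without replicate number 1 (0.0257). Those of hba4.S, 7.24, 6.62, 6.80 and 6.80, did not pass either (0.112, and 0.0370 without number 4). The 2 groups of hba3.L stood apart within every number, whereas the 2 arrays of a number stayed within 0.51 of each other for the first hba-l5.L set.

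**Figure D3:**
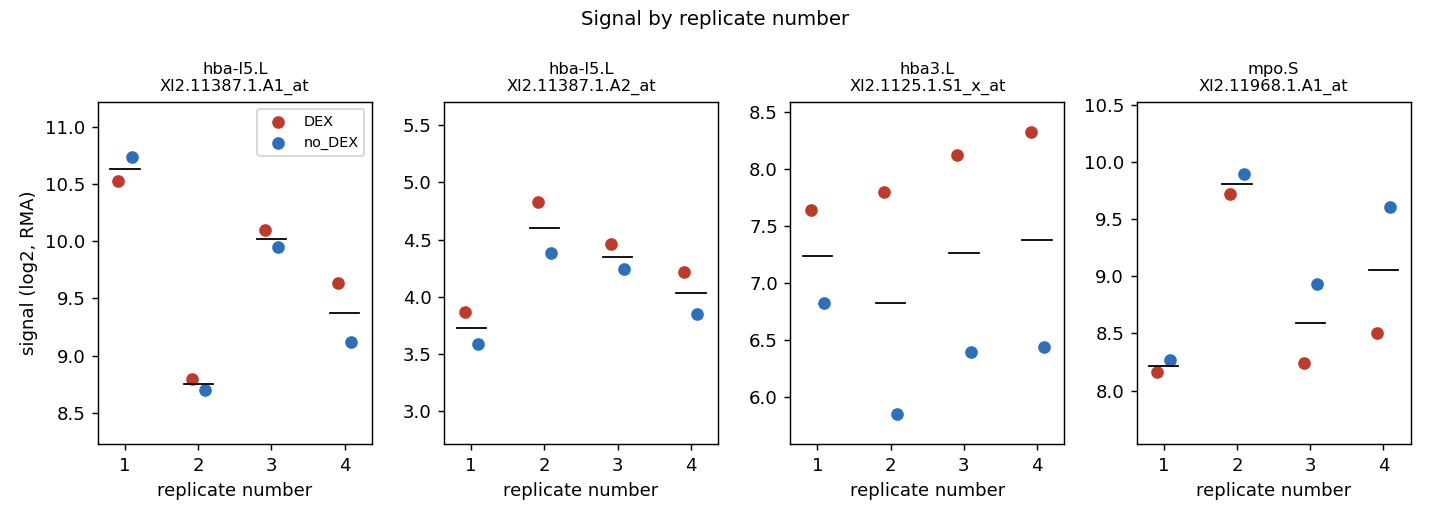
Signal (log2, RMA; each panel spans 3 units) by replicate number for both hba-l5.L probe sets, hba3.L and the myeloid gene mpo.S, with DEX in red, no_DEX in blue and their mean as a black line. Number 1 is highest and number 2 lowest on the first hba-l5.L set and the reverse holds on the second, mpo.S is highest in number 2, and in hba3.L the groups lie apart in every number.

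Genes with the most similar signals over the 8 arrays were looked up among 8924 other named genes above background. The arrays fall into 2 groups and 4 replicate numbers, so these correlations describe shared steps between them. Closest to hba3.L were dbndd1.L (r = 0.96), the stress gene gadd45g.L (0.95), gatad1.L (0.95), flvcr2.L (0.95), a relative of the haem exporter gene flvcr1, and qdpr.L (0.95), whose product regenerates tetrahydrobiopterin. With the group means taken out, their r was 0.65, 0.62, 0.83, 0.75 and 0.43. None of the 5 was a globin or stood on the blood lists. Such genes are few among the 8924 searched, so nothing is read from this.

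For hba-l5.L the closest were the mitochondrial ribosomal gene mrpl41.L (r = 0.97), cdca9.S (0.95), ddx31.L (0.95), ccz1b.S (0.95) and n6amt1.L (0.95), with r of 0.95 to 0.97 also after the group means were taken out. For hba4.S they were the sodium pump gene atp1b2.L (0.93), vps28.S (0.92), nemp1.S (0.92), the immunoproteasome gene psmb9.S (0.91) and bcap31.L (0.90). Between the globins, r was 0.69 for hba4.S with the first hba-l5.L set and 0.41 for hba3.L with hba4.S. For hba3.L with the first hba-l5.L set it was 0.27. These r of hba3.L hold the difference between the groups by which it was chosen. With the group means taken out, r was 0.71, 0.29 and 0.50 in the same order, which reverses the order for hba3.L.

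Regulators of blood formation were compared from lists. Of 23 measured haematopoietic and erythroid regulators, 14 lay above background and 9 were dim, where 31.7% of all probe sets were dim. With the block 0 rose, 1 fell and 22 missed the threshold, where 0.434% of named genes rose and 0.301% fell. Without a block limma called 0, where 0.0177% of named genes were called, and unadjusted p was under 0.05 for 2 of 23 without and 7 of 23 with the block (4.24% and 12.5% of all probe sets). The list's median change was −0.01. The one that fell was tal1.S, the gene of the bHLH factor needed for all blood lineages, with 5.44, 5.88, 5.85 and 5.10 in DEX replicates 1 to 4, against 6.15, 7.15, 7.13 and 6.08 in no_DEX. Every DEX array lay below every no_DEX array, as for 1.18% of all probe sets. The log2 change of tal1.S was −1.06, with an adjusted p of 0.0169 in the blocked fit and 0.797 in the other. With the block it did not pass when pair 2 (0.0959) or pair 3 (0.0731) was left out. A dim second tal1.S probe set was lower in 4 of 4 pairs without passing (0.235 with the block).

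No other regulator above background passed in either fit. The growth factor independence gene gfi1b.L encodes a transcriptional repressor found in red cell and platelet precursors. It was 0.33 higher in mean and higher in 4 of 4 pairs (adjusted p = 0.111 with the block). The gene sox7.L was 0.53 higher, also in 4 of 4 pairs (0.202), with every DEX array above every no_DEX array (1.58% of all probe sets). The GATA factor gene gata2.L differed by 0.21, the Krüppel-like klf17.L by 0.20, nfe2.S, whose product activates globin genes in mammals, by 0.17 at the brightest of its 7 probe sets, and the Lmo2 partners ldb1.S and ldb1.L by 0.20 and 0.09. Lower without passing were runx1.L (−0.53) and the ETS factor gene fli1.S (−0.50), both in 4 of 4 pairs (adjusted p = 0.172 and 0.131 with the block). Another ETS factor gene, etv2.L (−0.22), and lmo2.S (−0.17) were lower too, while tcf3.S and tcf3.L differed by −0.02 and 0.01. On the whole list 2 regulators were higher in 4 of 4 pairs, where 10.9% of all probe sets were, and 6 were lower in 4 of 4. The share of all probe sets lower in 4 of 4 pairs was not counted. Nothing is therefore read from the number lower, nor from single genes lower in 4 of 4 pairs here or below. The widest change among the dim members was that of hhex.L (−0.57). Both gata1 genes were dim, with means of 3.76 for gata1.L (log2 change −0.01) and 3.53 for gata1.S (−0.02). They were looked up after their values were seen.

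Genes of haem synthesis and of red cell proteins gave no call. Of 25 measured, limma called 0 in either fit, with unadjusted p under 0.05 for 3 without and 4 with the block (4.24% and 12.5% of all probe sets), and the median change was 0.02. The erythroid haem synthesis gene alas2.S, picked after its values were seen, had 4.76, 4.40, 5.10 and 4.99 in DEX and 4.88, 4.52, 5.07 and 5.04 in no_DEX (log2 −0.07). The 3 widest were the carbonic anhydrase genes ca2.S (−0.69) and ca2.L (−0.39) and the dim ankyrin gene ank1.S (−0.38).

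Endothelial and myeloid genes numbered 16, and the blocked fit called 0 of them higher and 1 lower. Of the 16, 8 were higher and 8 lower, with a median of −0.00. Over the 9 above background the median was −0.44, and the other 7 were dim. Without a block limma called 0, and unadjusted p was under 0.05 for 2 without and 8 with the block (4.24% and 12.5% of all probe sets). The one called was cebpa.S, the gene of a myeloid and liver factor, with 6.09, 7.20, 6.95 and 5.89 in DEX and 6.52, 7.66, 7.73 and 6.85 in no_DEX replicates 1 to 4. Its log2 change was −0.66, with an adjusted p of 0.0499 in the blocked fit and 1.00 in the other, and it did not pass once any of the 4 pairs was left out (0.0907 to 0.184). The myeloperoxidase genes mpo.L and mpo.S, marks of the first Xenopus myeloid cells, stood at −0.71 and −0.52 in 4 of 4 pairs without passing, and spib.L at −0.47. The apelin receptor genes aplnr.S (0.37) and aplnr.L (0.25), expressed in endothelium, were higher in 4 of 4 pairs, with every DEX array above every no_DEX array (1.58% of all probe sets). Their adjusted p was 0.115 and 0.278 in the blocked fit, and both genes were picked after their values were seen. The gene flt1.L of this list, also above background and picked likewise, ran the other way. Its signals correlated with those of hba3.L at r = −0.70 over the 8 arrays, against 0.78 for aplnr.S and 0.72 for aplnr.L. These r hold the difference between the groups by which hba3.L was chosen. With the group means taken out, r was −0.57 for flt1.L, −0.37 for aplnr.S and 0.04 for aplnr.L.

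**Figure D4:**
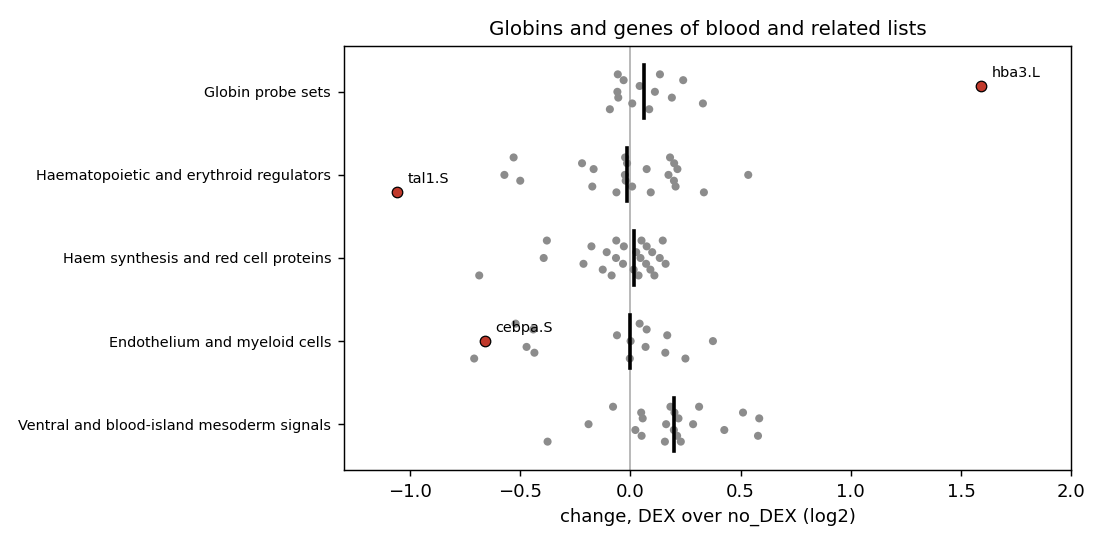
Change (DEX over no_DEX, log2) of the 14 globin probe sets and of genes on 4 lists, 1 point per probe set, with the list median as a black bar. Red points with a name passed with the replicate block: hba3.L (1.59) is higher in DEX, and tal1.S (−1.06) and cebpa.S (−0.66) are lower.

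Over replicate numbers, the myeloid gene mpo.S averaged 8.22, 9.81, 8.59 and 9.05 for numbers 1 to 4 (adjusted p = 0.00882), high where the first hba-l5.L set was low. Deviations of mpo.S and of mpo.L from the group means both correlated at −0.97 with those of that set over 8 arrays. Among the regulators above background this r ran from −0.92 (fli1.S) and −0.90 (runx1.L) up to 0.16 (gfi1b.L). The inverse pattern was therefore not particular to the mpo genes. In these lists 6 of 23 regulators, 7 of 25 haem and red cell genes and 6 of 16 endothelial and myeloid genes differed between numbers, against 20.7% of all probe sets.

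Lists of neighbouring tissue gave the setting of these changes. Of 21 ventral and blood-island mesoderm signals, 18 were higher and 3 lower, 0 passed in either limma fit (unadjusted p under 0.05 for 2 without and 7 with the block, and for 4.24% and 12.5% of all probe sets), and the median was 0.20 (szl.L 0.58, ventx1.2.S 0.58, ventx1.1.S 0.51). Their median change in pairs 1 to 4 was 0.69, −0.05, 0.03 and 0.10. Endoderm genes, 6 of them also on that list and hhex.L also among the regulators, had a median of 0.16 with 0 of 19 passing (unadjusted p under 0.05 for 3 without and 7 with the block, beside the same shares of all probe sets; cer1.S 1.05, foxa4.L 0.81, foxa4.S 0.67). The endoderm median change in pairs 1 to 4 was 0.64, −0.04, 0.10 and −0.07.

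Skeletal muscle genes were lower in DEX for 12 of 13, with a median of −0.72, 0 passing (unadjusted p under 0.05 for 2 without and 9 with the block, and for 4.24% and 12.5% of all probe sets), and array medians of 6.48 to 8.25 in DEX and 6.09 to 8.86 in no_DEX (tnnc2.S −1.92, myh4.L −1.79, mylpf.L −1.60). With the block and without pair 4, 5 of the 13 passed downward, where 73 of all 32539 probe sets did. With all pairs, or without pair 1, 2 or 3, 0 of the 13 did. The muscle median change in pairs 1 to 4 was −0.78, −1.52, −0.98 and 0.18. Neural plate genes were lower for 13 of 13, with a median of −0.26 and 0 passing (unadjusted p under 0.05 for 2 without and 6 with the block, beside the same shares of all probe sets; sox2.L −0.41, pax6.L −0.40, otx2.S −0.35). The part of these tissues in the hba3.L difference was not tested.

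The globin genes lie on the homeologous chromosomes 9_10L and 9_10S in the RefSeq gene table of Xenopus_laevis_v10.1, which was used for gene order only. On 9_10L, hba3.L stands between hba2.L and hbz.L, with hba1.L, not analysed here, and hbg1.L after it and hba-l5.L before them. Its immediate neighbours hba2.L (log2 −0.05) and hbz.L (0.24) were dim. On 9_10S, hba4.S stands next to hba1.S, which was dim at 2.75 in DEX and 2.81 in no_DEX.

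Of 46 other genes between the globins or among the 5 beyond each end, 15 were measured, and hba1.L and hbg2.S were among those not analysed here. None of the 15 passed in either limma fit (unadjusted p under 0.05 for 1 without and 2 with the block, and for 4.24% and 12.5% of all probe sets), where 0.553% of all probe sets did with the block. Their changes ran from −0.12 to 0.35. The largest was that of kctd18.L (0.35, adjusted p = 0.109 with the block). At the position next to hbe1.L lies gby.L, globin Y, a globin-fold gene outside the haemoglobin chains, which was looked up after its values were seen. It measured 12.76, 12.55, 12.65 and 12.78 in DEX against 12.71, 12.43, 12.50 and 12.28 in no_DEX (log2 0.20, adjusted p = 0.440 with the block). The other listed globin-fold genes, ngb.L (−0.01) and cygb.S (0.20), encoding neuroglobin and cytoglobin, were dim and did not pass.

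**Figure D5:**
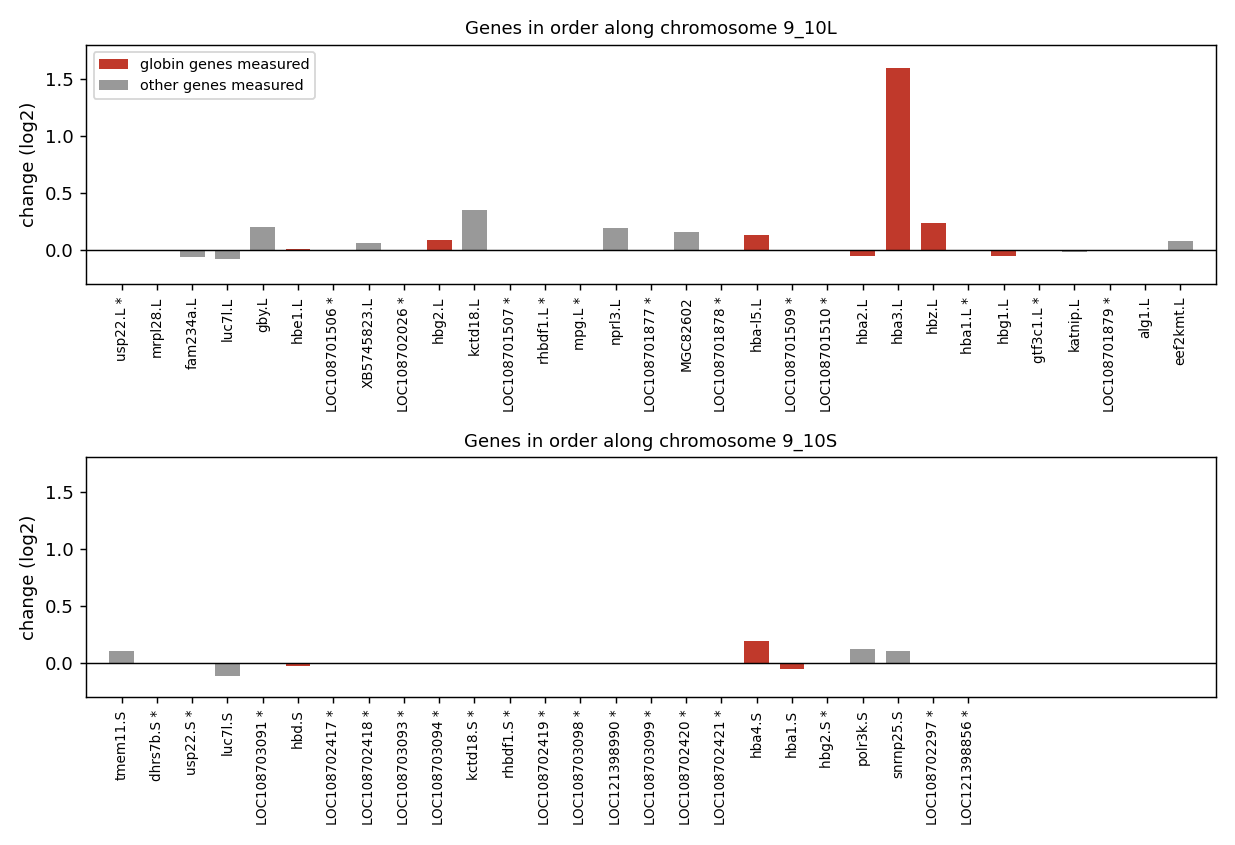
Change (DEX over no_DEX, log2) of the brightest probe set of each gene, in gene order along chromosomes 9_10L and 9_10S, from 5 genes before the first globin to 5 after the last. Red bars are globins, grey bars other genes, and an asterisk marks a gene not analysed here. The bar of hba3.L (1.59) stands above all others, which lie between −0.12 and 0.35.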

How the data were processed

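Globin signals came from 8 Affymetrix arrays, 4 DEX and 4 no_DEX. The deposited table holds log2 values, and RMA (background correction, quantile normalization, summary over probes) is named in the submitters' processing notes, with no version in the sources used here. Of 32635 probe sets, 96 Affymetrix controls were left out. The platform annotation gave 1 symbol for 15495, several for 279, which were not named, and does not list 16765. Symbols were updated through the RefSeq gene table of Xenopus_laevis_v10.1, and the brightest probe set stood for a gene. The files hold 0 pairs of identical arrays. Precision is limited by how many arrays there are.

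DEX was set against no_DEX by limma 3.58.1, run under R 4.3.3 (two-sided, Benjamini-Hochberg over 32539 probe sets, called at an adjusted p under 0.05), without a block and with the replicate number as one. Deviations of same-numbered arrays correlated at 0.63 to 0.78, against at most 0.20 between numbers, so the numbers were taken to pair arrays. Replicate numbers were compared by moderated F. Fits were also run on simulated data with independent noise for each probe set and array. Its outcome is not reported here, and nothing above rests on it. Alternatives were the block, a background filter, a variance trend, array weights, centring, linear means, and leaving out arrays or numbers. All globin probe sets are named, with the 5 genes most alike per globin above background, and from each list the genes called, the regulators above background and the 3 others that changed most. Named outside this rule, after their values were seen, are gata1.L, gata1.S, alas2.S, aplnr.S, aplnr.L, flt1.L and the neighbouring genes kctd18.L and gby.L. Members and lists were chosen with earlier results of these data known. Labels do not say that arrays came from separate clutches, so p-values measure the spread between these arrays.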

Additional observations from a re-analysis of the deposited data

Results flagged for a closer look

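Among the 14 globin probe sets in 2 groups, 1 array lay far from the other 3 of its group. The dim hbg1.L probe set Xl2.34797.1.A1_x_at measured 3.56 in DEX replicate 1, against 3.80, 3.79 and 3.77 in DEX replicates 2 to 4. The gap to the nearest of these was 0.86 of the group's range, above Dixon's critical value. Of 28 groups looked at, chance alone flags about 1 in 20.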

How the results depend on the processing

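The change of hba3.L stayed between 1.42 and 1.74 with any 1 array left out, with array medians centred and from linear means, and those of hba4.S (0.06 to 0.32) and hbz.L (0.16 to 0.29) kept their direction too. The first hba-l5.L set moved between −0.17 and 0.51 with 1 array left out, and hba3.L minus this set between 1.19 and 1.82. Globin probe sets with DEX above no_DEX on every array numbered 1, where 1.58% of all probe sets were so. With 1 array left out they numbered 1 to 3 (2 without DEX replicate 2, 3 without no_DEX replicate 3). The share of all probe sets was not counted with 1 array left out, so nothing is read from these counts.

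Over all probe sets, 2 were called higher and 0 lower without a block, against 107 and 73 with the replicate block. With 1 array left out, 0 to 2 were higher and 0 to 1 lower, and with the block and 1 pair left out, 22, 4, 17 and 47 were higher and 12, 0, 9 and 73 lower (without numbers 1 to 4). Array weights, a variance trend, centring and the background filter gave counts within 1.5 times of the main ones. Replicate numbers differed for 6723 probe sets, and 3681 (without number 2) to 6567 (without number 1) with 1 number left out. Without number 1 hba3.L passed this test (adjusted p = 0.0257), and without number 4 hba4.S did (0.0370). Signal over background limits 11 of the 14 globin probe sets.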
